A study of Rattus norvegicus with 24 samples.

Results

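The tRNA-Asn-GTT features were the annotated rat tRNA genes that decode asparagine through the anticodon GTT. Of 1172 small RNA features in the tables, 14 ended in AsnGTT, all 14 in the cortex count table and 10 of them in the thalamus table. No feature with the anticodon ATT of asparagine was listed. The 7 features followed most closely (tRNA353, tRNA2846, tRNA3824, tRNA4134, tRNA7267, tRNA8581 and tRNA9441, each with the ending AsnGTT) were selected because their values were higher after injury in these same libraries. Differences between TBI and sham for these 7 are therefore a description and not independent evidence.

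Transfer RNA carries an amino acid to the ribosome and reads a codon with its anticodon, and tRNA-Asn reads the codons AAC and AAU. Mammalian genomes hold several copies of most tRNA genes, and copies of 1 anticodon are often nearly identical. The wobble base of the tRNAs for asparagine, aspartate, histidine and tyrosine can be exchanged for queuine, a base obtained from diet and gut bacteria. The modified nucleoside that results is queuosine. Under stress, ribonucleases such as angiogenin cut tRNAs into shorter fragments (tRFs), and libraries of short inserts record such fragments. A row counted every fragment assigned to its gene, so it does not tell which end of the tRNA was measured.

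The libraries came from adult Sprague-Dawley rats killed 3 months after surgery, from cortex around the lesion (perilesional cortex) and from the thalamus of the same side. The TBI group (n = 6) received lateral fluid-percussion injury, a blow to the intact dura by a fluid wave, and the sham group (n = 6) had the operation alone. Both regions of all 12 rats were sequenced, 24 libraries in total, and the RNA of a region was pooled from several pieces of tissue. The TBI rats had been picked by imaging for chronic inflammation around the lesion, so they represent such rats only.

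The libraries held 847300 to 4501868 reads of the small RNA table in cortex and 615608 to 4530850 in thalamus, and 5 libraries held fewer than 1000000. Values are CPM (reads scaled to 1000000 per library), where 1 read was worth 0.221 to 1.62 CPM. tRNA features took 6.10% to 14.5% of the table in sham cortex, 6.47% to 18.1% in TBI cortex, 8.26% to 16.7% in sham thalamus and 10.1% to 17.7% in TBI thalamus. The brain miRNAs miR-124-3p, miR-9a-5p and miR-128-3p were abundant in every library, with a summed level of at least 126708 CPM. The median of this sum was 335148 CPM in sham and 257407 in TBI cortex. In thalamus it was 200778 in sham and 173693 in TBI rats, and the ranges overlapped in both regions. Trimmed mean of M-values (TMM) factors, which correct for composition, were 0.766 to 1.11 in sham and 0.969 to 1.22 in TBI cortex. CPM carries no such factor: without it the median log2 fold change of all cortical features moved from 0.00 to 0.30.

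tRNA2846-AsnGTT was the most abundant of these rows. In cortex its level was 17.8 CPM at the lowest, 39.3 at the median and 47.7 at the highest in sham rats, against 96.6, 125 and 187 CPM in TBI rats. In thalamus the same 3 values were 20.7, 63.8 and 96.9 CPM in sham rats and 126, 206 and 295 CPM in TBI rats. Every TBI library lay above every sham library of its region, and rat 24 was highest in TBI cortex and rat 63 in TBI thalamus. The log2 fold change was 1.60 ± 0.20 (SE) in cortex (edgeR adjusted p = 0.000208) and 1.85 ± 0.34 in thalamus (limma adjusted p = 0.00525). In these bulk samples, more cells of a type that contains these RNAs and more RNA per cell cannot be told apart.

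tRNA353-AsnGTT had the widest gap between its 2 regional fold changes, although the interaction of injury with region did not pass the test (limma adjusted p = 0.999). In cortex it ran from 4.06 to 11.7 CPM in sham rats (median 8.60) and from 13.2 to 21.6 CPM in TBI rats (median 14.7). In thalamus it ran from 6.79 to 15.2 CPM in sham rats (median 9.68) and from 26.1 to 39.7 CPM in TBI rats (median 30.9). The groups did not overlap in either region on the CPM scale, although in cortex they did after TMM scaling. The log2 fold change was 1.62 ± 0.23 in thalamus (limma adjusted p = 0.000628) and 0.60 ± 0.25 in cortex, where it did not pass (edgeR adjusted p = 0.221). The fits differ between the regions: with limma on log2(CPM + 1), as in thalamus, the cortical value was 0.91 and passed (limma adjusted p = 0.0411), and without TMM it was 0.91 as well (edgeR adjusted p = 0.0487).

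tRNA7267-AsnGTT was called in both regions. Its cortical level was 5.09 to 8.22 CPM in sham rats (median 5.93) and 11.3 to 18.5 CPM in TBI rats (median 15.7). Its thalamic level was 7.28 to 15.2 CPM in sham rats (median 9.70) and 21.6 to 37.2 CPM in TBI rats (median 30.1). No sham library reached a TBI library of its region. The log2 fold change was 1.01 ± 0.20 in cortex (edgeR adjusted p = 0.00770) and 1.44 ± 0.23 in thalamus (limma adjusted p = 0.00198).

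tRNA4134-AsnGTT was second only to tRNA2846-AsnGTT in mean level in both regions of TBI rats. It measured 5.85 to 16.2 CPM in sham cortex (median 10.5) and 17.6 to 33.9 CPM in TBI cortex (median 24.7). In thalamus it measured 6.38 to 18.4 CPM in sham rats (median 14.9) and 30.04 to 50.9 CPM in TBI rats (median 37.5). The groups were apart in both regions, except in cortex after TMM scaling. The log2 fold change was 1.00 ± 0.24 in cortex (edgeR adjusted p = 0.0246) and 1.43 ± 0.25 in thalamus (limma adjusted p = 0.00448).

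tRNA8581-AsnGTT and tRNA9441-AsnGTT lay close to the threshold in cortex. tRNA8581-AsnGTT ran from 3.57 to 13.2 CPM in sham and from 15.3 to 29.1 CPM in TBI cortex, and from 8.39 to 18.0 CPM in sham and from 22.4 to 37.6 CPM in TBI thalamus. tRNA9441-AsnGTT ran from 3.78 to 8.15 CPM in sham and from 11.8 to 20.3 CPM in TBI cortex, and from 4.79 to 12.6 CPM in sham and from 19.5 to 37.99 CPM in TBI thalamus. Neither row overlapped between the groups of a region. In cortex the log2 fold changes were 0.87 ± 0.23 for tRNA8581-AsnGTT (edgeR adjusted p = 0.0455) and 0.84 ± 0.23 for tRNA9441-AsnGTT, the row just inside the threshold (edgeR adjusted p = 0.0465). In thalamus they were 1.24 ± 0.23 and 1.42 ± 0.26, both at a limma adjusted p of 0.00537.

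tRNA3824-AsnGTT was the 1 row of the 7 whose cortical groups met on the CPM scale. The highest sham library, from rat 55, measured 14.2 CPM and the lowest TBI library, from rat 63, measured 13.9 CPM. In thalamus sham rats spanned 10.2 to 17.3 CPM and TBI rats 22.4 to 48.8 CPM, without overlap. The log2 fold change was 0.75 ± 0.24 in cortex (edgeR adjusted p = 0.0966, not past the threshold) and 1.18 ± 0.23 in thalamus (limma adjusted p = 0.00750), where it was the row just inside. In cortex it passed with limma on log2(CPM + 1), at 0.95 (limma adjusted p = 0.0292), and without TMM, at 1.04 (edgeR adjusted p = 0.0242).

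**Figure D1:**
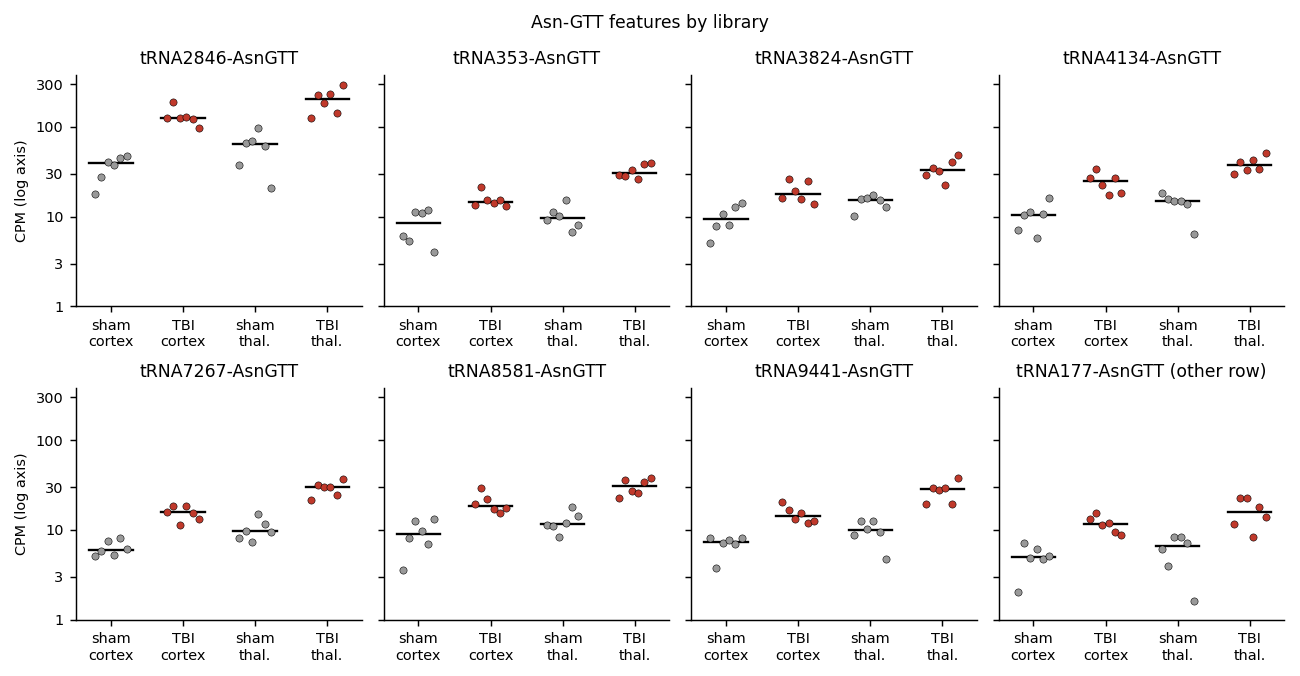
Level of the 7 selected Asn-GTT features and of tRNA177-AsnGTT in each library, in CPM on a log axis, by region and group (grey sham, red TBI, 6 rats each, bar at the median). TBI points of tRNA2846-AsnGTT sit at 96.6 CPM or above in cortex and 126 or above in thalamus, over all sham points of the same region.

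Over the 7, 5 were called higher in cortex, where 12 of the 14 Asn-GTT rows passed the filter on low counts and 2.95% of all 645 features tested were called higher. In thalamus 7 of 7 were called higher, where 2.19% of 640 features were. No Asn-GTT row was called lower in either region. On the CPM scale 6 of the 7 did not overlap between the groups in cortex (3.72% of all features had every TBI library above every sham library) and 7 of 7 in thalamus (2.5%). After TMM scaling this held for 4 of the 7 in cortex (2.02% of all features) and 7 of 7 in thalamus (2.19%). Since these contrasts chose the 7, nothing is read from the counts.

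The cortical calls were sensitive to single rats. tRNA2846-AsnGTT and tRNA7267-AsnGTT were called in 12 of 12 fits that left 1 rat out, tRNA4134-AsnGTT in 7, tRNA8581-AsnGTT in 3 and tRNA9441-AsnGTT in 1. The cortical count of Asn-GTT rows fell in all 12 fits, to 2 without rat 24, 38, 45 or 50, to 3 without rat 22, 26, 56 or 63 and to 4 without rat 32, 34, 52 or 55. Without rat 32, 1 of the 4 was not among the 7. The count fell to 2 when the 3 shallow cortical libraries were left out together. In thalamus each of the 7 was called in 12 of 12 such fits.

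tRNA177-AsnGTT lay just outside the threshold in both regions. It measured 2.04 to 7.11 CPM in sham and 8.78 to 15.4 CPM in TBI cortex, without overlap. In thalamus it measured 1.60 to 8.43 CPM in sham and 8.34 to 22.9 CPM in TBI rats, where the ranges met. Its log2 fold change was 0.85 ± 0.25 in cortex (edgeR adjusted p = 0.0763) and 1.35 ± 0.35 in thalamus (limma adjusted p = 0.0658), sizes within the range of the 7. At the lowest, this row rested on 4 reads in a cortical and 1 read in a thalamic library.

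tRNA746-AsnGTT and tRNA4111-AsnGTT gave small or negative differences. tRNA746-AsnGTT had a log2 fold change of -0.71 ± 0.42 in cortex (edgeR adjusted p = 0.368) and -0.15 ± 0.49 in thalamus (limma adjusted p = 0.938). Its sham libraries ran from 4.00 to 24.1 CPM in cortex and from 2.56 to 36.7 CPM in thalamus. tRNA4111-AsnGTT had a log2 fold change of -0.16 ± 0.30 in cortex (edgeR adjusted p = 0.847) and 0.19 ± 0.24 in thalamus (limma adjusted p = 0.867). tRNA4115-AsnGTT and tRNA4120-AsnGTT, tested in cortex, had values of -0.20 ± 0.26 and 0.04 ± 0.27 on the same scale. tRNA6224-AsnGTT and tRNA9278-AsnGTT did not pass the filter, with at most 6 and 18 reads in a library.

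**Figure D2:**
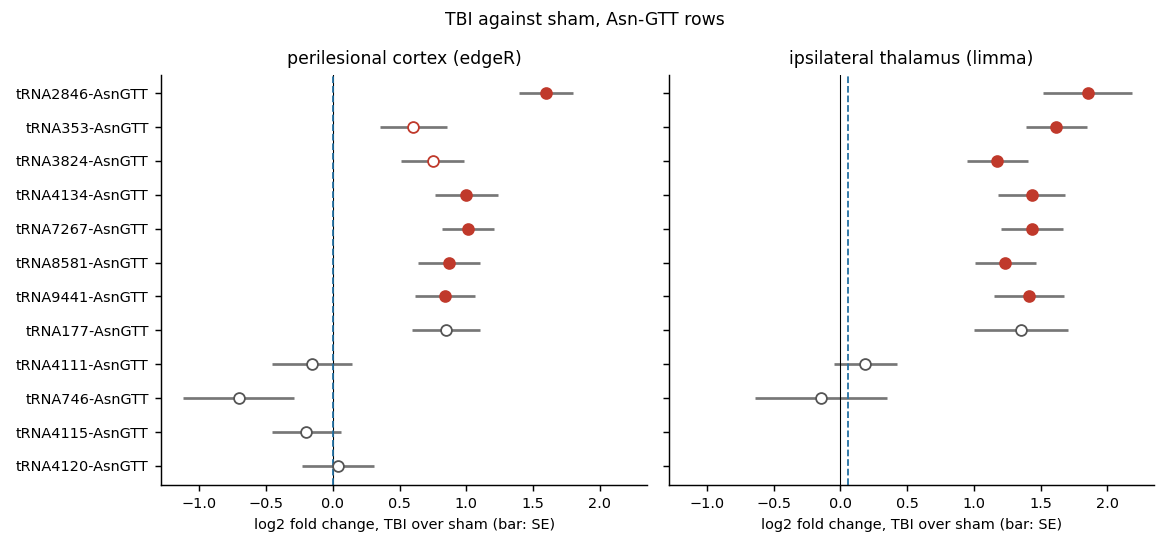
Log2 fold change of TBI over sham with its SE for each Asn-GTT row tested, in cortex (edgeR) and thalamus (limma), filled where the adjusted p was below 0.05, red for the 7 selected rows, with a dashed line at the median of all features. tRNA2846-AsnGTT stands highest in both panels (1.60 and 1.85), tRNA177-AsnGTT lies among the 7, and tRNA746-AsnGTT lies below 0 in both.

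All Asn-GTT rows together were summed to the level of the anticodon, 14 rows in cortex and 10 in thalamus. The rows differ, so these sums and their log2 differences are not compared between regions. In cortex the sum ran from 74.9 to 164 CPM in sham rats (median 126) and from 214 to 394 CPM in TBI rats (median 273), with means of 123 ± 31.3 and 284 ± 59.6 CPM (SD, n = 6 each). In thalamus it ran from 120.2 to 215 CPM in sham rats (median 157) and from 302 to 575 CPM in TBI rats (median 427), with means of 156 ± 33.9 and 428 ± 92.2 CPM (SD, n = 6 each). The groups were apart in both regions. On the log2 scale TBI exceeded sham by 1.23 in cortex and 1.46 in thalamus, or by 0.93 and 1.35 after TMM scaling.

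The 7 rows made up 95.5% of the difference in mean Asn-GTT level between TBI and sham in cortex and 97.2% in thalamus, and tRNA2846-AsnGTT alone made up 58.8% and 52.6%. The remaining 7 rows of cortex summed to 36.3 ± 14.4 CPM in sham and 43.5 ± 12.8 CPM in TBI rats (SD, n = 6 each), and the remaining 3 rows of thalamus to 25.7 ± 12.1 and 33.3 ± 7.81 CPM (SD, n = 6 each). These sums overlapped between the groups in both regions. The 7 were chosen for being higher after injury, so nothing is read from this split. The sum of the 7 without tRNA2846-AsnGTT ran from 35.1 to 61.9 CPM in sham and from 88.5 to 146 CPM in TBI cortex. In thalamus it ran from 55.9 to 86.8 CPM in sham and from 152 to 252 CPM in TBI rats. These rows were chosen in the same way, so this is not a separate check.

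The mix within the 7 also differed in cortex. tRNA2846-AsnGTT took 33.7% to 44.2% of their reads in sham cortex and 52.2% to 56.4% in TBI cortex, without overlap. In thalamus it took 27.1% to 52.8% in sham and 42.7% to 57.3% in TBI rats, and the ranges met. As a share of all tRNA reads, the anticodon moved from 0.116% ± 0.00666 in sham to 0.232% ± 0.0516 in TBI cortex (SD, n = 6 each) and from 0.138% ± 0.0343 to 0.325% ± 0.0603 in thalamus (SD, n = 6 each), again without overlap. The 7 chosen rows supplied most of that difference, and the mix within them restates their fold changes, so nothing is read from either.

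**Figure D3:**
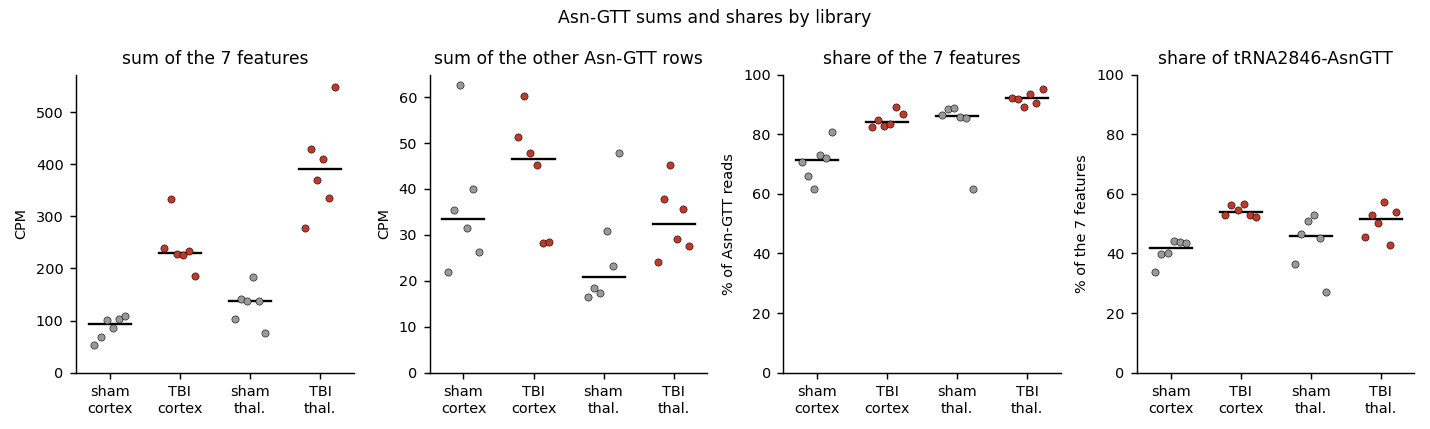
Summed CPM of the 7 selected rows and of the other Asn-GTT rows, the share of the 7 in all Asn-GTT reads, and the share of tRNA2846-AsnGTT in the 7, by library (grey sham, red TBI, 6 rats each, bar at the median). The sum of the 7 is apart between the groups in both regions and that of the other rows is not. This contrast is not evidence, since the 7 were chosen for being higher in TBI rats. The other rows number 7 in cortex and 3 in thalamus, so these shares are not compared between regions.

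The order of the rows within a group was led by tRNA2846-AsnGTT, which was the highest Asn-GTT row in 12 of 12 cortical and 11 of 12 thalamic libraries. The exception was the shallow thalamic library of sham rat 55, in which tRNA746-AsnGTT was highest. The 14 genes named Trnan-guu in the GRCr8 RefSeq annotation are 73 to 74 bases long. They could not be paired with these rows, so the order given is that of CPM alone. In sham cortex tRNA2846-AsnGTT had a mean of 36.0 ± 11.3 CPM (SD, n = 6), followed by tRNA746-AsnGTT at 10.6 ± 8.18 and tRNA4134-AsnGTT at 10.2 ± 3.63. In TBI thalamus it had a mean of 202 ± 63.1 CPM (SD, n = 6), followed by tRNA4134-AsnGTT at 38.6 ± 7.63 and tRNA3824-AsnGTT at 34.7 ± 9.18. In each group the step from the first to the second row exceeded the spread over rats, and the steps between the second and the third row did not.

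The difference between thalamus and cortex was then compared within sham rats and within TBI rats, in 1 limma fit over all 24 libraries with TMM scaling. In sham rats 0 of the 10 Asn-GTT rows were called (limma, adjusted p at least 0.405, and 0 at an unadjusted p below 0.05). Of all 641 features, 46 (7.18%) were called higher in thalamus and 28 lower. With 10 rows, nothing is read from this count. The log2 differences of the 7, thalamus minus cortex, ran from -0.01 (tRNA353-AsnGTT) to 0.29 (tRNA7267-AsnGTT). The contrasts that chose the 7 had compared these libraries with TBI within each region and not between regions, but from the same values.

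In TBI rats 2 of the 7 were higher in thalamus, where 5.62% of all features were. The TBI values of both regions had served to choose the 7, so these calls are a description. tRNA353-AsnGTT differed by 0.82 ± 0.24 on the log2 scale (limma adjusted p = 0.0219) and tRNA7267-AsnGTT by 0.67 ± 0.19 (limma adjusted p = 0.0158). With the rat as a block tRNA3824-AsnGTT passed as well, at 0.60 ± 0.20 (limma adjusted p = 0.0461, against 0.0912 without the block). The other 4 of the 7 had values from 0.38 to 0.61 that did not pass. The count was 0 without rat 45, 0 without rat 63 and 1 without rat 24, and it was 4 when library size replaced TMM, which moved the median of all features from 0.00 to 0.21.

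**Figure D4:**
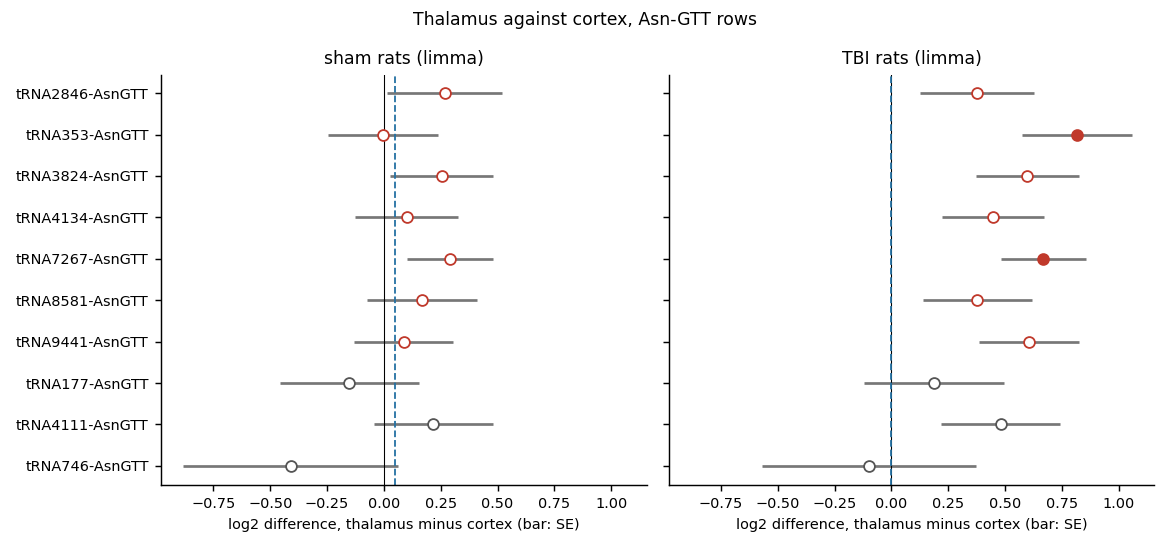
Log2 difference of thalamus minus cortex with its SE for the 10 Asn-GTT rows found in both regions, in sham and in TBI rats (limma), filled where the adjusted p was below 0.05, red for the 7 selected rows, with a dashed line at the median of all features. In sham rats the 7 lie between -0.01 and 0.29, and in TBI rats between 0.38 and 0.82, with tRNA353-AsnGTT and tRNA7267-AsnGTT filled.

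Whether the injury effect itself differed between the regions was tested as an interaction in the same fit. None of the 641 features passed (limma; 14 had an unadjusted p below 0.05), so a difference between regions was not shown for any Asn-GTT row. The estimates of all 10 Asn-GTT rows were positive, 0.34, 0.26 and 0.31 for tRNA177-AsnGTT, tRNA4111-AsnGTT and tRNA746-AsnGTT and, among the 7, from 0.11 ± 0.36 for tRNA2846-AsnGTT to 0.82 ± 0.34 for tRNA353-AsnGTT (limma adjusted p = 0.999 for both). The median over all 641 features was -0.06. Other tRNA rows had positive estimates as well, such as 0.61 for tRNA10653-HisGTG and 0.43 for tRNA1068-ProAGG. Negative ones occurred too, such as -0.29 for tRNA10114-LeuTAA and -0.22 for tRNA10826-GlnCTG. The 10 rows share the same libraries, so nothing is read from their common sign. Both injury contrasts had been used to choose the 7.

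The summed level of the 7 was next followed across rats within each group, over 6 relations tested by exact two-sided permutation. Between cortex and thalamus of the same rat, Pearson's r was -0.23 in TBI rats (exact permutation p = 0.657, Spearman's rho = -0.43, p = 0.419, n = 6) and -0.07 in sham rats (exact permutation p = 0.893, rho = -0.37, p = 0.497, n = 6). Without the 2 rats farthest from the cortical median, r was -0.996 and -0.88 over the remaining 4 rats, values that rested on very few points. After TMM scaling r was 0.15 in TBI and -0.17 in sham rats, and -0.81 and 0.21 over the remaining 4, so the direction depended on the scaling and on single rats. The TBI rat with the highest sum in thalamus, rat 63, had the lowest in cortex.

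Between the 7 and the other Asn-GTT rows of the same library, r was 0.53 in sham cortex (exact permutation p = 0.299, rho = 0.31, p = 0.564) and 0.73 in TBI cortex (exact permutation p = 0.0736, rho = 0.66, p = 0.175). It was -0.38 in sham thalamus (exact permutation p = 0.468, rho = -0.03, p = 1) and 0.09 in TBI thalamus (exact permutation p = 0.889, rho = 0.14, p = 0.803). Without the 2 libraries farthest from the median these became 0.02, 0.03, 0.53 and -0.26. After TMM scaling the 4 values of r were 0.07, 0.32, -0.72 and 0.08, and -0.39, 0.83, -0.02 and 0.42 without the 2 farthest libraries. None of the 6 relations passed after Benjamini-Hochberg adjustment, with an adjusted p of 0.442 for TBI cortex and 0.893 for the other 5, or 0.894 for all 6 after TMM scaling.

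**Figure D5:**
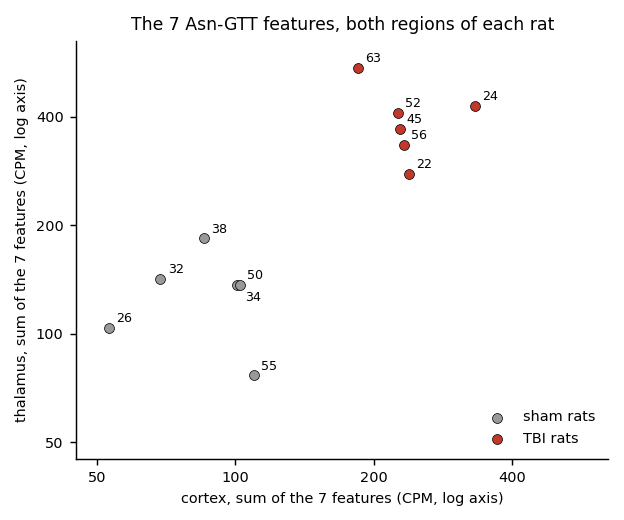
Summed CPM of the 7 selected rows in cortex (x) and thalamus (y) of each rat, on log axes, labelled by rat number (grey sham, red TBI, 6 rats each). The TBI rats lie at 185 CPM or above in cortex and 278 or above in thalamus, apart from the sham rats on both axes, with no relation past the test within either group (r = -0.23 in TBI and -0.07 in sham).

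The other anticodons that can carry queuosine held no called row among 32 in each region. Over all features, 2.95% were called higher in cortex and 2.19% in thalamus, so with 32 rows nothing is read from this count. In cortex the median log2 fold change was 0.60 over 12 Asp-GTC rows, -0.09 over 12 His-GTG rows and -0.25 over 8 Tyr-GTA rows. In thalamus it was 0.51, 0.63 and -0.18 over the same numbers of rows. Beside these, the median over the 12 cortical Asn-GTT rows was 0.79 and over the 10 thalamic rows 1.38, against 0.09 and 0.27 over all tRNA features and 0.00 and 0.06 over all features tested. Both Asn-GTT medians included the rows selected for being higher after injury, so nothing is read from their comparison with the other medians. Among the other 5 cortical and 3 thalamic Asn-GTT rows the medians were -0.16 and 0.19. The same choice left these rows out, so nothing is read from their medians either.

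Of 274 tRNA features tested in cortex 13 were called higher, 5 of them Asn-GTT rows, and of 266 in thalamus 12 were, 7 of them Asn-GTT rows, which these contrasts had chosen. Of Ile-AAT, 1 of 7 rows was called in each region, and of Lys-TTT, 1 of 9. These were tRNA1652-IleAAT, with a log2 fold change of 2.19 ± 0.24 in cortex (edgeR adjusted p = 5.29e-05) and 2.33 ± 0.27 in thalamus (limma adjusted p = 8.58e-05), and tRNA5177-LysTTT, at 1.70 ± 0.24 (edgeR adjusted p = 0.000606) and 2.08 ± 0.24 (limma adjusted p = 8.58e-05). They were named after their values were seen. Of Arg-ACG, 2 of 3 rows were called in cortex and 2 of 4 in thalamus.

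Leukocyte miRNAs were measured beside these rows. The summed level of miR-142-3p, miR-142-5p, miR-223-3p and miR-150-5p ran from 600.5 to 1002 CPM in sham (median 732) and from 708 to 1659 CPM in TBI cortex (median 1285). In thalamus, where miR-223-3p was not in the CPM table, the other 3 ran from 619 to 1265 CPM in sham (median 1003) and from 851 to 2015 CPM in TBI rats (median 1328). The ranges overlapped in both regions, none of these miRNAs was at 0 in any library, and none passed the test (edgeR adjusted p from 0.0639 to 0.375 in cortex, limma adjusted p from 0.254 to 0.772 in thalamus). Their part in the Asn-GTT levels was not tested.

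To find features with a like pattern, each of 621 features was correlated with the summed 7 over the 24 libraries after the mean of each group was taken out. The 5 closest without the AsnGTT ending were tRNA3881-GluTTC (r = 0.80), tRNA8813-AspGTC (0.79), tRNA3878-ThrAGT (0.79), tRNA5115-LysTTT (0.78) and tRNA2018-GluTTC (0.78), and none of these was called between TBI and sham in either region. The closest miRNA was miR-106b-5p (r = 0.67), at rank 33. tRNA2846-AsnGTT, which supplied much of the sum, had r = 0.97, and the other 6 had r from 0.45 to 0.72. All 7 are parts of the sum, so their r is partly fixed in advance and nothing is read from it. Libraries share their depth and tRNA content here: the sum had r = 0.52 with the tRNA share of the library, or 0.31 after TMM scaling, and the median r over all features was 0.27.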

How the data were processed

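According to the study's methods, adapters were trimmed and reads were mapped to the rat genome RGSC3.4 with miRBase annotation, and a band of short inserts, wider than miRNA length, had been excised. The authors deposited raw read counts per feature for cortex (miRNAs and tRNA features) and for thalamus (miRNAs only), and CPM tables of both regions. CPM was the count divided by the library's total over the kept features, with no TMM factor, as checked for every feature with a deposited count. How reads shared by near-identical tRNA copies were divided is not given in the sources used here, so single rows are uncertain. No pair of Asn-GTT rows had equal counts in every cortical library. Genes named in RefSeq could not be paired with the feature numbers, so no sequence or position is given.

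Groups and rat numbers came from the sample titles. The selected features and the lists were chosen with earlier results of these data known. Cortex counts were tested with the edgeR 4.0.16 quasi-likelihood test (R 4.3.3; filterByExpr, TMM, robust). Its SE is the absolute log2 fold change over the square root of F. Thalamus CPM was tested with limma 3.58.1 with trend on log2(CPM + 1), after dropping features that reached 1 CPM in fewer than 6 libraries. Such fold changes understate low features. Cortical rows absent from the CPM table were put on its scale from their counts. The joint fit over both regions used limma on log2(CPM + 1) after TMM over the reads behind the 2 tables. All p-values were adjusted over all features tested (threshold 0.05), and the fits were tested on simulated data. DESeq2 1.42.0 was an alternative. Named were the 7 rows, the next largest and just-outside Asn-GTT rows and the most alike features.

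Each rat gave both regions, so the rat number pairs libraries. Same-rat deviations correlated with a median of 0.51 in TBI rats (above 0.1 in 5 of 6) and 0.02 in sham rats (3 of 6). Libraries of a group were not duplicates (chi-square per degree of freedom at least 42.9 over 30 pairs in cortex and 71.8 over 30 in thalamus). In the shallowest library a count of 0 allows up to 4.87 CPM (3 reads), for counting error only, since PCR copies are not independent.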

Additional observations from a re-analysis of the deposited data

Results flagged for a closer look

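A library was picked out where it lay far from the other 5 of its group (Dixon's test, gap over range above 0.625). Over 68 groups of values this occurred 7 times, and chance gives about 1 in 20. In TBI cortex rat 24 was highest for tRNA2846-AsnGTT (187.4 CPM, next 127.4), for tRNA353-AsnGTT (21.65 CPM, next 15.34) and for the sum of the 7 rows (333.4 CPM, next 238.5). These flags rest on CPM without TMM factors, and rat 24 had the largest factor in cortex (1.22). In sham cortex rat 32 was lowest for tRNA9441-AsnGTT (3.776 CPM, next 7.042) and rat 34 was highest for tRNA4111-AsnGTT (10.73 CPM, next 5.869). In sham thalamus rat 55 was highest for tRNA746-AsnGTT (36.71 CPM, next 12.64) and lowest for tRNA4134-AsnGTT (6.384 CPM, next 13.98), in a library of 626552 reads.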

How the results depend on the processing

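The 7 rows kept a positive log2 fold change in both regions in all 232 refits of single rows. In cortex the count of called Asn-GTT rows, 5 as reported, was 8 with library size in place of TMM, 8 with limma on log2(CPM + 1), 3 with no filter on low counts, 1 with a mean of at least 50 counts (where only 1 row was tested), and 4 and 5 with DESeq2's size factors and with DESeq2. It was 2 to 4 when 1 rat was left out, and 2 without the shallow libraries, an alternative chosen after seeing the data, as was TMM scaling of the counts of rows that did not overlap. In thalamus the count of 7 was 7 or 8 throughout. The count of rows higher in thalamus than in cortex in TBI rats, 2 as reported, was 4 with library size, 3 with the rat as a block, 3 without the shallow libraries, and 0 to 3 without 1 rat. In sham rats it was 0, and 1 with library size. The rat block changed no other call. The interaction count was 0 throughout, and so was the count of relations past the threshold. The log2 difference of the summed rows was 1.09 to 1.32 in cortex and 1.37 to 1.56 in thalamus without 1 rat. Where a count moved, the cause was not tested, except that stricter filters tested fewer rows and left-out rats left fewer samples. The thalamic tRNA rows were deposited as CPM. Whole reads behind them could be recovered, but edgeR on thalamus or joint reads was not run. Depth limits the low rows most: apart from tRNA2846-AsnGTT, the 7 rested on as few as 3 reads in a library.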

Other observations

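Among the 7 rows, with group means taken out, 21 pairs had r from 0.03 to 0.71 over the 24 libraries (median 0.39), close to the median of 0.33 over pairs of other tRNA features. tRNA177-AsnGTT had a median r of 0.34 with the 7, tRNA4111-AsnGTT 0.31 and tRNA746-AsnGTT 0.14. The libraries share depth and tRNA content, and no p is given.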
